A study of Danio rerio with 15 samples.

Results

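The genes *isg15*, *isg20*, *irf1b* and *adar* were followed in whole zebrafish embryos depleted of Esco2, the acetyltransferase that stabilizes cohesin on chromosomes. They were found on the array by symbol: a probe set was taken when the platform annotation gave it 1 of these 4 symbols and no other, which left 4 of 15502 probe sets, 1 for each gene, among 8794 genes on the array with a symbol of their own. Wild type embryos had received, at the 1-cell stage, an *esco2* morpholino that blocks translation or an injection of buffer alone, and RNA from pools of 50 dechorionated embryos was hybridized to 15 Affymetrix arrays. At 24 hours post-fertilization (hpf) there were 4 arrays of *esco2* morphants and 4 of controls. At 48 hpf there were 4 of morphants and 3 of controls, numbered 1, 3 and 4. The controls received no other morpholino, so an effect of Esco2 depletion and an effect of injecting any morpholino cannot be told apart here.

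Interferons are secreted when cells sense foreign or misplaced nucleic acid. They bind receptors that signal through JAK kinases and STAT proteins, and together with the interferon regulatory factors (IRFs) these switch on a set of interferon-stimulated genes. In mammals, *ISG15* encodes a ubiquitin-like protein that is conjugated to other proteins, *ISG20* an exonuclease that degrades RNA, *ADAR* an enzyme that converts adenosine to inosine in double-stranded RNA, and *IRF1* a transcription factor of this response. Several of these genes also respond to signals other than interferon, and *ADAR* is made in most tissues.

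The 4 genes did not move as 1 group. *isg15* and *isg20* were higher in *esco2* morphants than in controls at both times, *adar* was lower at both times, and *irf1b* was lower at 24 hpf and higher at 48 hpf. The genes were chosen by these same differences between morphants and controls, so the differences are given as a description, with the standard error (SE) of a linear model and no test. All values are log2 expression values per array, and differences are morphant minus control on that scale. In RNA from whole embryos, fewer cells that hold a transcript and less transcript per cell cannot be told apart.

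The level of esco2 itself was no check of the depletion, since the morpholino blocks translation and not transcription. Its transcript was lower in morphants at 24 hpf by a log2 difference of -0.31 (limma adjusted p = 0.034) and higher at 48 hpf by 0.39 (limma adjusted p = 0.0064). The call at 24 hpf was lost without any 1 array of that age other than morphant replicate 1 (limma adjusted p from 0.055 to 0.12). Markers of neurons (*elavl3*), muscle (*myod1*), skin (*krt4*, *krt5*), red blood cells (*hbae3*), heart (*myl7*) and notochord and cartilage (*col2a1a*) were measured, and each had a mean over all arrays above the upper quartile of control probe sets with no target in the fish. At 24 hpf limma called 0 of the 7 (unadjusted p under 0.05 for 3, all higher), beside 9.77% of all probe sets. The largest difference of a marker at that age was that of *elavl3*, -0.48 (SE 0.27, limma adjusted p = 0.32). Its values in controls at 48 hpf were widely spread, from 8.44 to 10.3. At 48 hpf limma called *myl7* higher by 0.55, *myod1* higher by 0.41 and *col2a1a* lower by a difference of -0.26, beside 22.6% of all probe sets called. The part of these tissues in the results on the 4 genes was not tested. One library at 48 hpf, control replicate 3, was unlike the others: its mean correlation with its own group was 0.985, against 0.989 to 0.997 on the other arrays, and the median of 25 untargeted control probe sets was 4.55 on it, against 3.73 to 4.30 on the others. For the 4 genes and some list genes the difference at 48 hpf is therefore also given without that array. Other values at 48 hpf come from all arrays and may depend on single ones. The median difference of all 15502 probe sets was 0.00 at 24 hpf and 0.01 at 48 hpf.

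*isg15*, the ubiquitin-like modifier, had log2 values of 7.89, 8.11, 7.70 and 7.56 in the 4 morphant pools at 24 hpf, against 4.17, 4.47, 4.34 and 4.34 in the controls. The lowest morphant array stood 3.08 above the highest control array. The group means were 7.81 ± 0.24 in morphants and 4.33 ± 0.13 in controls (SD, n = 4 each), a difference of 3.48 (SE 0.10) or 11.2-fold. This was the highest difference among the 8794 genes with a probe set of their own at 24 hpf. Of all probe sets, 10.0% at 24 hpf and 14.1% at 48 hpf were higher on each morphant array than on each control array.

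At 48 hpf *isg15* was at 5.35, 5.21, 5.27 and 5.39 in the morphant pools, against 4.60, 4.53 and 4.52 in the controls. The groups were again apart, by 0.61. The means were 5.3 ± 0.08 in morphants (SD, n = 4) and 4.55 ± 0.05 in controls (SD, n = 3), a difference of 0.76 (SE 0.11) or 1.69-fold, and it was the 150th highest of the 8794 genes. The difference was 0.74 without control replicate 3. The morphant effect at 48 hpf minus that at 24 hpf was -2.73 (SE 0.15), the most negative change between the times of all 8794 genes.

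The order of the *isg15* levels was morphants at 24 hpf, morphants at 48 hpf, controls at 48 hpf and controls at 24 hpf. The control groups were the closest neighbours, 0.22 apart (SE 0.11), and their arrays were separated by 0.04. Untargeted control probe sets had means between 3.60 and 4.66 (lower and upper quartile of 25), and both control groups of *isg15* lay within that range. A probe set so near the background of the array can show only part of a change, so the level in controls and the fold over it are less certain than the level in morphants.

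*isg20*, which encodes the exonuclease, had log2 values of 9.19, 9.25, 9.19 and 9.06 in morphants at 24 hpf, against 7.87, 7.66, 7.69 and 7.66 in controls. The groups were apart by 1.19. The means were 9.17 ± 0.08 in morphants and 7.72 ± 0.10 in controls (SD, n = 4 each), a difference of 1.45 (SE 0.12) or 2.73-fold, the 25th highest of the 8794 genes. The level in controls at this age was well above the untargeted probe sets, the brightest of which had a mean of 6.14.

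At 48 hpf *isg20* was at 8.43, 8.38, 8.44 and 8.61 in morphants, against 6.95, 6.29 and 7.01 in controls. The groups were apart by 1.37, and the lowest control value was that of replicate 3, the array that stood apart. The means were 8.47 ± 0.10 in morphants (SD, n = 4) and 6.75 ± 0.40 in controls (SD, n = 3), a difference of 1.71 (SE 0.13) or 3.28-fold, the 7th highest of the 8794 genes. Without control replicate 3 the difference was 1.48. The morphant effect on *isg20* changed by 0.26 (SE 0.18) between the times, beside -2.73 for *isg15*.

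The *isg20* levels were lower at 48 hpf than at 24 hpf, with a difference of -0.71 in morphants (SE 0.12) and -0.97 in controls (SE 0.13). Among the 8794 genes these were the 513th lowest difference between the ages in morphants and the 379th lowest in controls. The order was morphants at 24 hpf, morphants at 48 hpf, controls at 24 hpf and controls at 48 hpf, with no overlap between neighbours. Morphants at 48 hpf therefore still had more *isg20* transcript than controls had a day earlier. The share of all probe sets with such a separation between the ages is not given here.

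*adar*, the RNA-editing enzyme, had log2 values of 6.67, 6.78, 6.64 and 6.77 in morphants at 24 hpf, against 6.84, 6.93, 6.98 and 7.15 in controls. Each morphant array was below all controls, as held for 10.9% of all probe sets, but the gap was 0.07. The means were 6.72 ± 0.07 in morphants and 6.98 ± 0.13 in controls (SD, n = 4 each), a difference of -0.26 (SE 0.08) or 1.20-fold lower, the 692nd lowest of the 8794 genes.

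At 48 hpf *adar* was at 6.59, 6.55, 6.56 and 6.58 in morphants, against 7.08, 7.14 and 6.85 in controls. The groups were apart by 0.26, and 11.9% of all probe sets were lower on every morphant array at this age. The means were 6.57 ± 0.02 in morphants (SD, n = 4) and 7.02 ± 0.15 in controls (SD, n = 3), a difference of -0.45 (SE 0.08) or 1.37-fold lower. It was -0.40 without control replicate 3. The change between the times was -0.19 (SE 0.12). Controls at both ages overlapped, with means of 7.02 at 48 hpf and 6.98 at 24 hpf, and the morphants at 48 hpf had the lowest level of the 4 groups.

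*irf1b*, the transcription factor, had log2 values of 4.22, 4.49, 4.15 and 4.06 in morphants at 24 hpf, against 4.39, 5.21, 4.99 and 4.88 in controls. The groups overlapped: morphant replicate 2 lay above control replicate 1, and the other 3 morphant arrays lay below all controls. The means were 4.23 ± 0.18 in morphants and 4.87 ± 0.35 in controls (SD, n = 4 each), a difference of -0.64 (SE 0.15) or 1.56-fold lower.

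At 48 hpf the direction was the opposite. *irf1b* was at 4.82, 4.86, 4.60 and 4.91 in morphants, against 4.30, 4.52 and 4.03 in controls, and the groups were apart by 0.08. The means were 4.80 ± 0.14 in morphants (SD, n = 4) and 4.28 ± 0.24 in controls (SD, n = 3), a difference of 0.52 (SE 0.16) or 1.43-fold higher. It was 0.63 without control replicate 3. The change in the morphant effect was 1.15 (SE 0.22), the 13th highest of the 8794 genes.

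The difference of *irf1b* between 48 and 24 hpf was 0.57 in morphants (SE 0.15) and -0.58 in controls (SE 0.16). Morphants at 48 hpf and controls at 24 hpf overlapped (means of 4.80 and 4.87), as did morphants at 24 hpf and controls at 48 hpf (4.23 and 4.28). Both lower groups lay within the quartiles of the untargeted probe sets and both higher groups only just above them. All of the *irf1b* values were thus close to background.

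**Figure D1:**
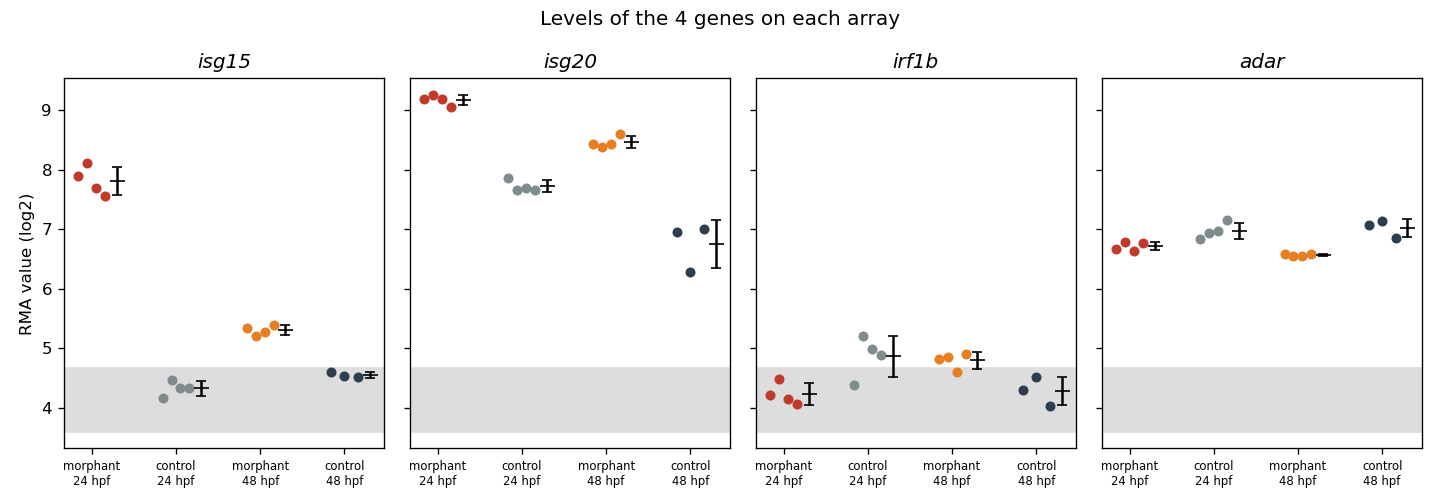
Log2 expression value (vertical axis) of *isg15*, *isg20*, *irf1b* and *adar* on each of the 15 arrays, with morphants left of controls at 24 and 48 hpf. Points are arrays, black bars the mean ± SD, and the grey band runs from the lower to the upper quartile (3.60 to 4.66) of the mean levels of 25 untargeted control probe sets. *isg15* reached 7.56 to 8.11 in morphants at 24 hpf and lay within the grey band in controls, and the *irf1b* groups at 24 hpf overlap.

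**Figure D2:**
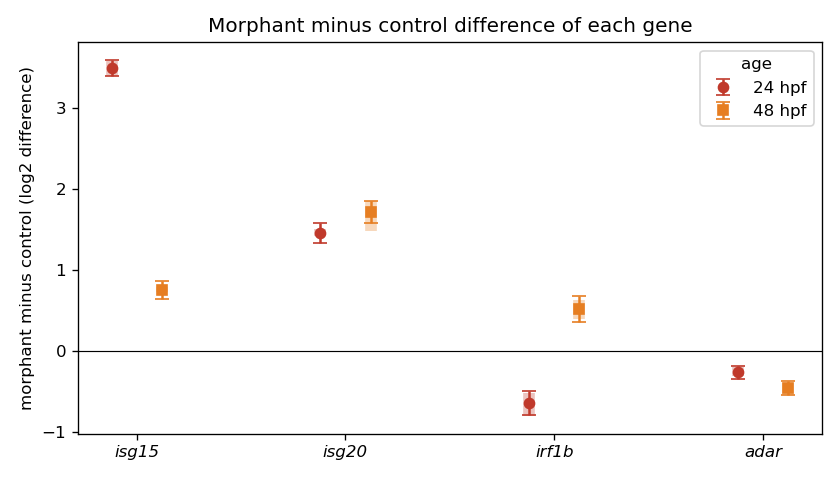
Morphant minus control difference on the log2 scale for the 4 genes at 24 and 48 hpf. Points are the differences, bars their standard errors, and the pale bands the range when each array was left out in turn. The *irf1b* difference is -0.64 at 24 hpf and 0.52 at 48 hpf, and the other genes keep 1 direction.

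The arrays within a group carry information that did not choose the genes. The deviation of each gene from its group mean was therefore compared between the genes over the 15 arrays. Arrays with more *isg15* than their group had more *irf1b* as well (Pearson's r = 0.69, permutation p = 0.0027, adjusted p = 0.016 over 6 pairs). Spearman's rho was 0.68 (permutation p = 0.0094, adjusted p = 0.056), and r was 0.69 without the 2 arrays farthest from the median of *isg15*. That omission kept control replicates 1 and 2 at 24 hpf, which had the largest *irf1b* deviations (-0.48 and 0.34). They also had the lowest and highest median of the untargeted probe sets at that age (3.79 and 4.13). Leaving them out was not tried for r. The adjusted permutation p of Pearson's r for the other 5 pairs was between 0.30 and 0.45. All permutations shuffled the arrays of each group separately, so they did not allow for a shared source of same-numbered pools. Over all probe sets, 6 of 8 arrays at 24 hpf correlated best with the same-numbered array of the other group.

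Within 1 age, r of *isg15* and *irf1b* was 0.80 over the 8 arrays of 24 hpf and 0.26 over the 7 arrays of 48 hpf, and the difference between the ages was not tested. For the other pairs r within 1 age lay between -0.67 and 0.81, the highest being that of *irf1b* and *adar* at 48 hpf. The *irf1b* deviations also went with the median of the untargeted probe sets of the array (r = 0.62, permutation p = 0.017, adjusted p = 0.068 over 4 genes, and rho = 0.66, adjusted permutation p = 0.039). Those of *isg20* went the other way (r = -0.69, permutation p = 0.043, adjusted p = 0.086, and rho = -0.77, adjusted permutation p = 0.038). For *isg15* and *adar* r with this median was 0.15 and 0.49 (adjusted permutation p = 0.45 and 0.17). The part of the array background in the relation of *isg15* and *irf1b* was not tested.

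**Figure D3:**
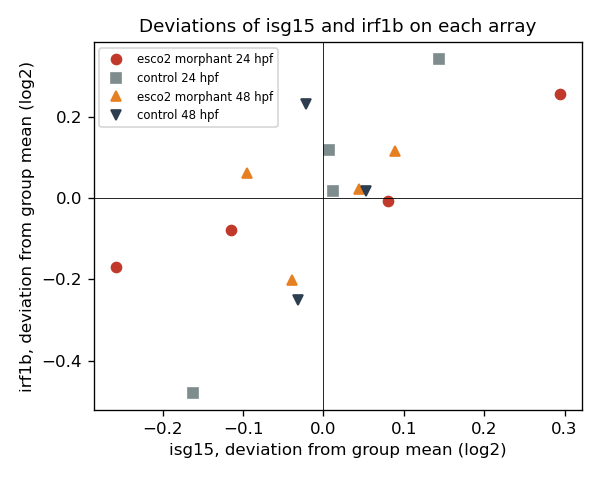
Deviation of *irf1b* (vertical axis) against that of *isg15* (horizontal axis) from the mean of the same group, in log2 units, for each of the 15 arrays. The symbols mark the 4 groups, and r is 0.69 over all arrays, 0.80 at 24 hpf and 0.26 at 48 hpf.

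The rest of the interferon pathway was then examined. It was represented by 6 lists without the 4 genes: ligands and receptors, JAK and STAT genes, the IRF family, sensors of nucleic acid, antiviral effectors, and antigen presentation with the immunoproteasome. Of their 231 genes, 70 had a probe set of their own, and 30 of these had a mean below the upper quartile of the untargeted probe sets. A gene was called when its limma p, adjusted by the Benjamini-Hochberg method over all probe sets, was at most 0.05. At 24 hpf, 4 of the 70 genes rose, 5 fell and 61 were not called. These are 5.71% and 7.14%, beside 4.43% higher and 5.33% lower (9.77% in either direction) among all probe sets. The units differ: a list gene is its brightest probe set, while all probe sets include dimmer ones of a gene and those without a symbol. With probe sets averaged per gene, 4 of the 70 rose and 7 fell at 24 hpf, beside 6.86% higher and 7.3% lower among 8794 genes. At 48 hpf 8 rose, 3 fell and 59 were not called, or 11.4% and 4.29%, beside 12.8% higher and 9.79% lower (22.6% in either direction) among all probe sets. With probe sets averaged per gene, 15.3% of the 8794 genes were higher and 12.5% lower at this age. The median difference of the 70 genes was 0.02 at 24 hpf and 0.06 at 48 hpf.

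With each array of 24 hpf left out in turn, the count of risen genes ranged from 2 to 3 and that of fallen genes from 3 to 5. The lower figure of 2 was met without control replicate 1 or 4 or morphant replicate 1, 2 or 3, and that of 3 without control replicate 1 or 2 or morphant replicate 2 or 3. The share of all probe sets called with the same array left out is not given here. A drop particular to these genes therefore cannot be told apart from a drop over the whole array. At 48 hpf centring each array on the ribosomal protein genes raised the median difference of all probe sets to 0.12 and gave 21 risen and 3 fallen genes of the 70, beside 24.8% higher and 5.56% lower among all probe sets under that centring. The share of risen genes at 48 hpf thus depends on the scaling.

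Ligands and receptors were hardly represented, with 3 of 18 genes measured. *crfb1*, a subunit of the receptor for type I interferon in zebrafish, was higher in morphants at 24 hpf by 0.65 (SE 0.08, limma adjusted p = 5.8e-05) and at 48 hpf by 0.54 (SE 0.09, limma adjusted p = 3.5e-04). Its means were 4.18 ± 0.13 in morphants and 3.53 ± 0.03 in controls at 24 hpf (SD, n = 4 each), within or below the range of the untargeted probe sets. The ligand *ifnphi1* differed by 0.09 and 0.07 at 24 and 48 hpf and the receptor subunit *crfb4* by 0.20 and 0.06, and neither was called. The group means of *ifnphi1*, 3.23 to 3.40, lay below the lower quartile of the untargeted probe sets (3.60). Those of *crfb4* lay within the quartiles, so little of a change could be seen in either gene.

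Among 16 measured JAK and STAT genes limma called 1 higher and 2 lower at 24 hpf, beside 4.43% and 5.33% of all probe sets. At 48 hpf it called 3 higher and 1 lower, beside 12.8% and 9.79% of all probe sets. Of the 16 genes, 3 were suppressors of cytokine signaling. *socs3a* was at 6.31 ± 0.48 in morphants and 5.22 ± 0.39 in controls at 24 hpf (SD, n = 4 each), a difference of 1.09 (SE 0.23, limma adjusted p = 0.005) or 2.13-fold, and of 0.71 at 48 hpf (SE 0.25, limma adjusted p = 0.048). The call at 48 hpf was lost without control replicate 1 or 3 or morphant replicate 3 or 4 (limma adjusted p from 0.075 to 0.19). *socs3b* differed by 0.02 at 24 hpf and rose by 0.77 at 48 hpf (SE 0.14), and *stat3* differed by -0.12 at 24 hpf and rose by 0.49 at 48 hpf (SE 0.10). Their effects changed between the times (limma adjusted p of the change = 0.027 for *socs3b* and 0.012 for *stat3*), as those of 6.28% of all probe sets did (3.75% upward and 2.52% downward). For *socs3b* that call was lost without control replicate 2 or 3 or morphant replicate 2 or 4 at 24 hpf, and without control replicate 1 or morphant replicate 4 at 48 hpf (limma adjusted p from 0.052 to 0.064). The third suppressor, *socs1a*, differed by 0.12 and -0.16 at 24 and 48 hpf and *stat5a* by 0.15 and 0.16, and neither was called.

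Other genes of this list fell. The STAT inhibitors *pias2* and *pias4a* were lower at 24 hpf by a difference of -0.34 (SE 0.09) and -0.30 (SE 0.07), with a limma adjusted p of 0.023 and 0.013. The call of *pias2* was lost without control replicate 1, 2 or 4 or morphant replicate 1, 2 or 3 (limma adjusted p from 0.05 to 0.071). The kinase *jak2a* differed by -0.06 at 24 hpf and was lower at 48 hpf by a difference of -0.49 (SE 0.10, limma adjusted p = 0.0026).

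In the IRF family 5 relatives of *irf1b* were measured of 13 listed. At 24 hpf 0 of the 5 were called by limma in either direction, beside 9.77% of all probe sets, and 0 had an unadjusted p under 0.05. At 48 hpf limma called 2 of the 5 higher and 0 lower, beside 12.8% higher and 9.79% lower among all probe sets. At 48 hpf *irf9*, whose mammalian counterpart binds STAT dimers to form the transcription factor of type I interferon signaling, was higher by 0.75 (SE 0.09), and its effect changed between the times by 0.76 (limma adjusted p of the change = 0.0011). Its means were 4.48 ± 0.11 in morphants (SD, n = 4) and 3.73 ± 0.12 in controls (SD, n = 3), near background. *irf7*, a regulator of interferon genes, was higher at 48 hpf by 0.29 (SE 0.09, limma adjusted p = 0.033), and this call was lost without control replicate 1 or 4 or morphant replicate 1 or 2 (limma adjusted p from 0.074 to 0.15). *irf1a*, the paralog of *irf1b*, differed by 0.01 and -0.06 at 24 and 48 hpf, *irf2a* by -0.08 and -0.01, and *irf5* by 0.02 and 0.17. Little of a change could be seen in *irf1a*, whose group means (3.45 to 3.52) lay below the lower quartile of untargeted probe sets (3.60).

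Of 8 measured sensors of nucleic acid, limma called 0 at either age, with 0 at 24 hpf and 1 at 48 hpf (lower) under an unadjusted p of 0.05. Limma called 9.77% of all probe sets at 24 hpf and 22.6% at 48 hpf. The differences at 24 and 48 hpf were -0.04 and 0.01 for *pkz*, a kinase that binds Z-form nucleic acid, 0.04 and 0.14 for the toll-like receptor *tlr21*, and 0.03 and 0.19 for *trim25*. These 3 genes are among 5 of the 8 sensors whose mean lay below the upper quartile of the untargeted probe sets, where little of a change could be seen.

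Of 15 measured antiviral effectors, 1 rose and 0 fell by limma at each age (unadjusted p under 0.05 for 2 higher and 1 lower at 24 hpf and for 4 higher and 0 lower at 48 hpf). Among all probe sets 4.43% were higher and 5.33% lower at 24 hpf, and 12.8% and 9.79% at 48 hpf. *ftr82*, of the fish-specific finTRIM family, was higher at 24 hpf by 0.24 (SE 0.07, limma adjusted p = 0.042), a call that was lost without any 1 array of that age other than control replicate 3 (limma adjusted p from 0.052 to 0.13). *gbp1*, a guanylate-binding GTPase, was higher at 48 hpf by 0.57 (SE 0.11, limma adjusted p = 0.0016). *mxa*, the Mx GTPase that serves as a standard readout of type I interferon in fish, was not called. It had 3.65 ± 0.02 in morphants and 3.51 ± 0.10 in controls at 24 hpf (SD, n = 4 each), and differed by 0.14 and -0.03 at 24 and 48 hpf. Its group means lay within or below the range of the untargeted probe sets, so little of a change could be seen.

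Of 23 measured genes of antigen presentation and the immunoproteasome, 1 rose and 3 fell at 24 hpf (4.43% and 5.33% of all probe sets), and 1 rose and 2 fell at 48 hpf (12.8% and 9.79% of all). The gene that rose at 24 hpf was *b2m*, the light chain of class I molecules, by 0.30 (limma adjusted p = 0.042), a call that was lost without control replicate 1, 3 or 4 or morphant replicate 1, 2 or 3 (limma adjusted p from 0.062 to 0.13). The chaperones *pdia3* and *calr3a* were lower at both ages, *pdia3* by a difference of -0.37 (SE 0.08) at 24 hpf and -0.65 (SE 0.08) at 48 hpf and *calr3a* by -0.35 (SE 0.07) and -0.38 (SE 0.08). *calr3b* was lower at 24 hpf by a difference of -0.37, a call that was lost without control replicate 1, 2 or 3 or morphant replicate 2, 3 or 4 (limma adjusted p from 0.066 to 0.11). These chaperones fold glycoproteins in every cell and are not particular to immunity. The proteasome activator *psme3* was higher at 48 hpf by 0.54 (SE 0.12), and by 0.34 without control replicate 3, and the immunoproteasome subunit *psmb8a* differed by 0.07 and 0.24 at 24 and 48 hpf and was not called. Of the 23 genes 12, *psmb8a* among them, had a mean below the upper quartile of the untargeted probe sets. Little of a change could be seen in those 12.

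A further 16 interferon-linked symbols that the array names were added later as a list of their own, outside the 6 lists. Limma called 1 higher and 1 lower at 24 hpf, beside 4.43% and 5.33% of all probe sets. At 48 hpf it called 1 higher and 0 lower, beside 12.8% and 9.79% of all probe sets. Of the 16 genes, 11 had a mean below the upper quartile of the untargeted probe sets, where little of a change could be seen. *ifi30a*, a lysosomal thiol reductase, was higher at 24 hpf by 0.33 (limma adjusted p = 0.012), and *mhc1laa* was higher at 48 hpf by 0.43 (limma adjusted p = 0.0057). *ifngr2*, a subunit of the receptor for interferon gamma, was lower at 24 hpf by a difference of -0.36 (limma adjusted p = 0.027), a call that was lost without any 1 control array of that age or without morphant replicate 2 or 4 (limma adjusted p from 0.053 to 0.1).

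**Figure D4:**
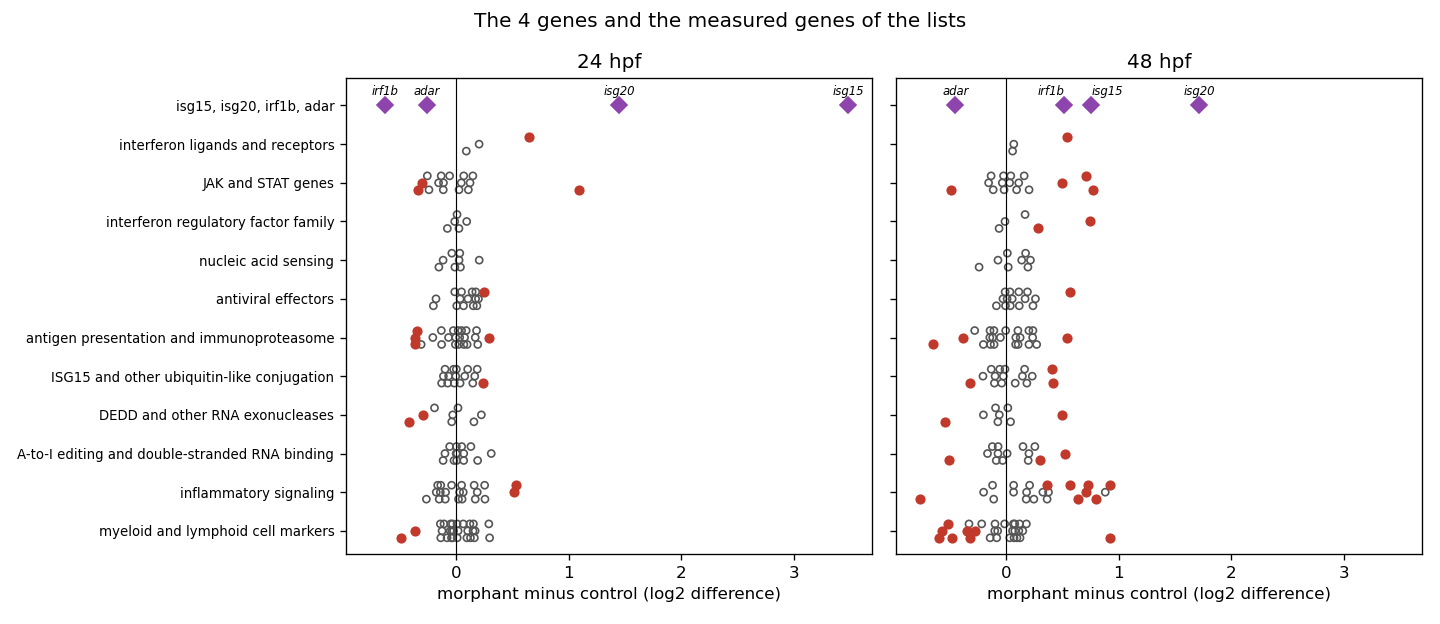
Morphant minus control difference (log2, horizontal axis) of each measured gene of the interferon pathway and comparison lists at 24 and 48 hpf. Filled red points passed an adjusted p of 0.05, open points did not, and diamonds are *isg15*, *isg20*, *irf1b* and *adar*, which were not tested. At 24 hpf *isg15* stands at 3.48, and the gene of the 6 interferon lists nearest to it, *socs3a*, at 1.09.

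The partners of each gene were examined in the same way. Of 16 measured genes of conjugation by ISG15 and other ubiquitin-like proteins, limma called 1 higher and 0 lower at 24 hpf (unadjusted p under 0.05 for 2 and 0), and 2 higher and 1 lower at 48 hpf. Of all probe sets, 4.43% were higher and 5.33% lower at 24 hpf, and 12.8% and 9.79% at 48 hpf. The ubiquitin gene *ubb* was higher at 24 hpf by 0.24 (SE 0.06, limma adjusted p = 0.015), and not without morphant replicate 4 (limma adjusted p = 0.054). *uba7*, whose human counterpart is the activating enzyme for ISG15, differed by -0.10 at 24 hpf and rose by 0.41 at 48 hpf (SE 0.11, limma adjusted p = 0.012), and was thus not called at the age when *isg15* stood highest. The change in its effect between the times was 0.51 (limma adjusted p = 0.053).

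The other calls on this list at 48 hpf did not outlast the loss of single arrays. The conjugating enzyme *ube2l3b* was higher by 0.41 (SE 0.13), but by 0.23 without control replicate 3, and its call was lost without that array or morphant replicate 2, 3 or 4 (limma adjusted p from 0.05 to 0.15). The ligase *herc2* was lower by a difference of -0.32 (SE 0.11), but by -0.17 without control replicate 3, and its call was lost without that array, control replicate 1 or morphant replicate 1 or 4 (limma adjusted p from 0.055 to 0.21). *usp21* differed by -0.11 and -0.10 at 24 and 48 hpf and was not called. Its group means of 3.10 to 3.21 lay below the lower quartile of the untargeted probe sets (3.60).

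For *isg20*, 8 of 25 genes of RNA exonucleases were measured. Limma called 0 of the 8 higher and 2 lower at 24 hpf, beside 4.43% higher and 5.33% lower among all probe sets. At 48 hpf it called 1 higher and 1 lower, beside 12.8% and 9.79% of all probe sets. *cnot6a*, a deadenylase subunit, was lower in morphants at 24 hpf by a difference of -0.42 (SE 0.09, limma adjusted p = 0.0043) and at 48 hpf by -0.54 (SE 0.09, limma adjusted p = 5.0e-04). The exonuclease *xrn1* was lower at 24 hpf by a difference of -0.30 (SE 0.08, limma adjusted p = 0.02), a call that was lost without control replicate 4 or morphant replicate 1, 2 or 3 (limma adjusted p from 0.051 to 0.077). The exosome subunit *exosc10* was higher at 48 hpf by 0.50 (SE 0.10, limma adjusted p = 0.0014). The others were not called.

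For *adar*, 14 of 25 genes of editing and double-stranded RNA binding were measured. At 24 hpf limma called 0 of these in either direction (unadjusted p under 0.05 for 2 higher and 0 lower), beside 9.77% of all probe sets. At 48 hpf it called 2 higher and 1 lower, beside 12.8% higher and 9.79% lower among all probe sets. At 48 hpf *adarb1a*, of the second family of adenosine deaminases that act on RNA, was lower like *adar*, by a difference of -0.51 (SE 0.11, limma adjusted p = 0.002), with means of 3.96 ± 0.15 in morphants (SD, n = 4) and 4.47 ± 0.24 in controls (SD, n = 3), near background. *adat1*, which edits adenosine in transfer RNA, was higher by 0.30 (SE 0.11, limma adjusted p = 0.046), a call that was lost without control replicate 1 or 4 or morphant replicate 1, 2 or 4 (limma adjusted p from 0.053 to 0.27), and the difference was 0.17 without control replicate 1. *dgcr8*, of microRNA processing, was higher by 0.52 (SE 0.16), but by 0.21 without control replicate 3, and its call was lost without that array or morphant replicate 2 or 3 (limma adjusted p from 0.053 to 0.085). *adad1* differed by 0.00 and -0.09 at 24 and 48 hpf, with group means of 3.99 to 4.08, near background.

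Inflammatory signaling and white blood cells were examined beside the 4 genes. Of 21 measured inflammatory genes, 2 rose and 0 fell by limma at 24 hpf (unadjusted p under 0.05 for 4 and 2), beside 4.43% higher and 5.33% lower among all probe sets. At 48 hpf 7 rose and 1 fell, beside 12.8% higher and 9.79% lower among all probe sets. The median difference of the 21 genes was 0.03 at 24 hpf and 0.33 at 48 hpf, beside 0.01 for all probe sets at 48 hpf. *caspb*, an inflammatory caspase, was higher at 24 hpf by 0.53 (SE 0.08) and at 48 hpf by 0.73 (SE 0.09). *ptgs2a*, a cyclooxygenase, was higher at 24 hpf by 0.51 (SE 0.16, limma adjusted p = 0.046), a call that was lost without any 1 array of that age (limma adjusted p from 0.056 to 0.12). At 48 hpf the chemokines *cxcl12a*, *cxcl12b* and *cxcl14* were higher by 0.80, 0.71 and 0.64, the metalloproteinase *mmp9* was higher by 0.92, and *mmp13a* was lower by a difference of -0.77.

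Of 28 measured markers of myeloid and lymphoid cells, 0 rose and 2 fell by limma at 24 hpf (unadjusted p under 0.05 for 2 higher and 2 lower), beside the same 4.43% and 5.33% of all probe sets. At 48 hpf 1 rose and 7 fell, beside the same 12.8% and 9.79% of all probe sets. The neutrophil lysozyme gene *lyz* was lower by a difference of -0.37 (SE 0.06) at 24 hpf and -0.51 (SE 0.07) at 48 hpf, and *cd68* by -0.49 (SE 0.08) and -0.35 (SE 0.09). The leukocyte genes *lcp1* and *coro1a* differed by 0.10 and -0.05 at 24 hpf and were lower at 48 hpf, by a difference of -0.60 and -0.48. Other leukocyte markers were not called at 48 hpf: *mpx* differed by -0.08, *csf1ra* by 0.12 and *ptprc* by 0.08. The 1 marker that rose was *mmp9*, which is also on the inflammatory list.

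The mean log2 value of the 28 markers ranged over arrays from 5.65 to 5.72 in morphants and from 5.66 to 5.71 in controls at 24 hpf, and from 5.86 to 6.03 in morphants and from 5.96 to 6.21 in controls at 48 hpf. Among the defining markers *ptprc* had a mean of 3.52 in morphants and 3.63 in controls at 24 hpf, within or below the range of the untargeted probe sets, *csf1ra* a mean of 4.11 in morphants and 3.98 in controls, within that range, and *mpx* a mean of 5.21 in morphants and 5.05 in controls. Of the 28 markers, 11 had a mean below the upper quartile of the untargeted probe sets. The part of white blood cells in the levels of the 4 genes was not tested.

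The genes most like each of the 4 over all 15 arrays were listed as a description. Likeness was Pearson's r between log2 values, and it includes the differences between the groups by construction. Symbols in the form of clone or locus names, and any that begin with fb, fc or fj, were left out of the ranking. A gene so named may therefore be closer than those given. For *isg15* the closest genes were *rasl11b* (r = 0.97), a Ras-like GTPase, *phlda2* (0.96), *baxa* (0.95), a pro-apoptotic member of the Bcl-2 family, *upb1* (0.95), an enzyme of pyrimidine breakdown, and *gadd45aa* (0.95), a gene known for its induction by DNA damage. All 5 were higher in morphants at 24 hpf, by 1.16 to 2.63, and less so at 48 hpf, by 0.54 to 1.08. None of the 5 is on the interferon lists, but these hold only 70 of the 8794 genes, so their absence says little.

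For *isg20* the closest was *sesn3* (r = 0.98), a sestrin, followed by *mrpl12*, *rsph1*, *rhoub* and *utp4* (0.96 to 0.97). *sesn3* was higher in morphants by 1.70 at 24 hpf and 1.43 at 48 hpf, and it was lower in controls at 48 hpf (mean 7.97) than in controls at 24 hpf (8.72). For *adar* the closest were *cnot6a* (r = 0.93), *pdia3* (0.92), *srsf3b* (0.91), a splicing factor, *ppiaa* (0.91), a cyclophilin, and *hspa5* (0.91), the chaperone BiP of the endoplasmic reticulum. All of these were lower in morphants at both ages, by a difference of -0.42 to -0.08 at 24 hpf and -0.70 to -0.15 at 48 hpf.

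For *irf1b* no gene kept in the ranking was as close. The first was *pald1a* at r = 0.77, and *jac4*, *rx2*, a homeobox gene of the retina, *eed*, a Polycomb subunit, and *ripk4* followed at 0.72 to 0.76. All 5 were lower in morphants at 24 hpf, by a difference of -0.53 to -0.16, and higher at 48 hpf, by 0.10 to 0.25. The group means of *jac4*, 3.16 to 3.33, lay below the lower quartile of the untargeted probe sets (3.60). The part of the array background in its likeness to *irf1b* was not tested. Between the 4 genes themselves r over all arrays was 0.82 for *isg15* and *isg20*, -0.74 for *isg20* and *adar*, and between -0.48 and 0.05 for the other 4 pairs.

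**Figure D5:**
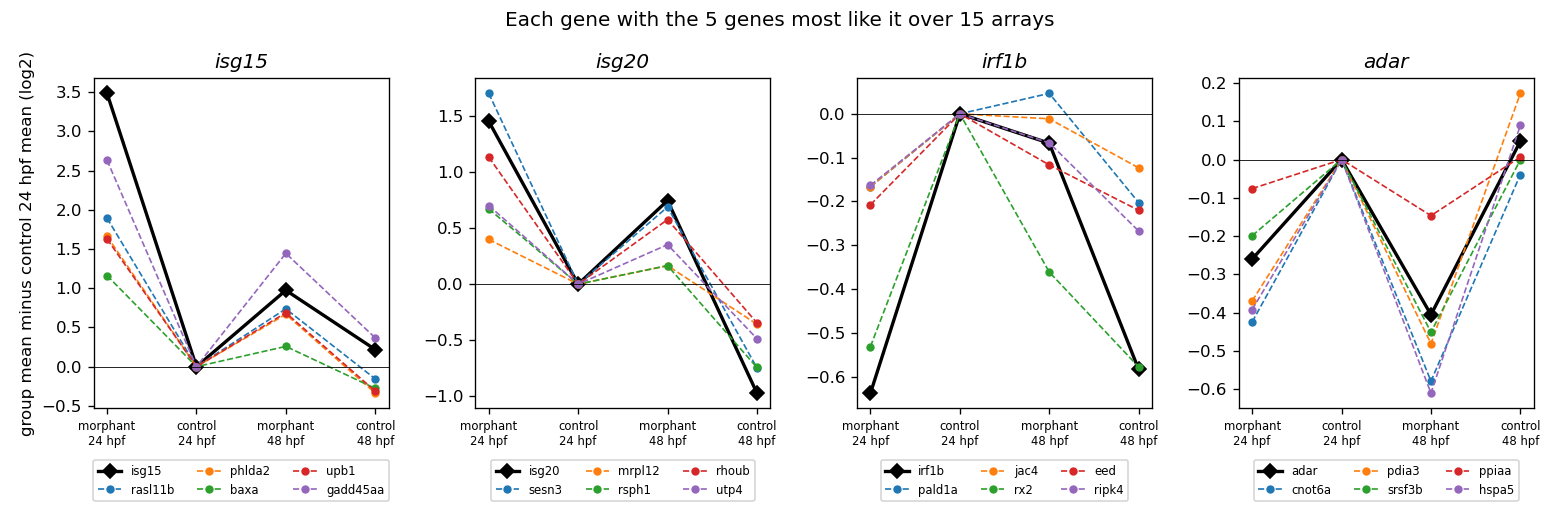
Group mean minus the mean of controls at 24 hpf (log2, vertical axis) in morphants and controls at 24 and 48 hpf, for *isg15*, *isg20*, *irf1b* and *adar* (black diamonds) and the 5 genes most like each over 15 arrays (coloured points, clone-like symbols left out), each panel with its own scale. Lines join the group means of 1 gene and are no time course. *rasl11b* and the other genes beside *isg15* peak in morphants at 24 hpf, as *isg15* does.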

How the data were processed

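The deposited log2 expression values, made by the authors with RMA (background correction, quantile normalization and a summary per probe set), were used as they were. The scanner files were not used here, and the versions of the authors' tools are not given in the sources used here. Symbols came from the platform annotation: of 15617 probe sets 115 Affymetrix controls were left out, and 10796 had 1 symbol, 134 several and 4572 none. A gene was represented by its probe set with the highest mean (8794 genes).

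A mean for each group was fitted to all 15 arrays with limma 3.58.1 (lmFit, eBayes) in R 4.3.3, with Benjamini-Hochberg adjustment over 15502 probe sets, and every adjusted p not named as a permutation comes from it. Standard errors are from this fit. Two-sided permutations within groups (100000) were run with Python 3.11.15 and numpy 2.4.6. The code was tested on simulated data. Each array is 1 pool, and precision is limited by how many there are. The replicate numbers of morphants and controls share no stated source.

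The 4 genes and the lists were chosen with earlier results of these data known, and 16 symbols were added once the array's symbols were seen. Named were the list genes called at either time with a fold of at least 1.5, otherwise up to 3 per list and time with the smallest adjusted p, the measured IRFs, interferon ligands and receptors, STATs, editing and ISG15 enzymes, and the 5 genes most like each of the 4. Some further genes were named with values as chosen afterwards (*b2m*, *socs1a*, *mxa*, *pkz*, *tlr21*, *trim25*, *psmb8a*, *irf2a* and the leukocyte markers not called). Alternatives were fits blocked on replicate number, each time alone, brighter probe sets, cyclic loess, ribosomal centring, a trended robust eBayes, array weights, each array left out, averaged probe sets per gene and a fold of at least 2. Promoter and protein sequences were not analysed here.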

Additional observations from a re-analysis of the deposited data

Results flagged for a closer look

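Single arrays that stood apart from the others of their group were looked for in 43 genes and the groups of 4 arrays. Chance gives about 1 in 20 such groups, and 7 of 129 were found. *isg20* was at 7.87 in control replicate 1 at 24 hpf, against 7.66, 7.66 and 7.69 in the other controls, and the morphants lay above it at 9.06 to 9.25. The same control array was lowest for *ifi30a* (9.75) and highest for *psme3* (9.92). Morphant replicate 4 at 48 hpf was highest for *caspb* (9.3) and *uba7* (5.31) and lowest for *herc2* (7.82), and morphant replicate 4 at 24 hpf was highest for *gata2a* (6.86). The cause was not tested.

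The morphant effect differed between the times for 9 genes of the interferon, inflammatory and white blood cell lists by limma's test of the change. The change, 48 hpf minus 24 hpf, was 0.76 for *irf9*, 0.75 for *socs3b* (lost when any of 6 single arrays was left out), 0.61 for *stat3*, 0.78 for *cxcl12a*, 0.48 for *cxcl14* and 1.06 for *mmp9*. It was -0.72 for *gata2a*, -0.7 for *lcp1* and -1.02 for *mmp13a*. Over all probe sets 6.28% had a change past the same threshold.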

How the results depend on the processing

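The signs of the differences of the 4 genes held under every alternative run. Only cyclic loess, ribosomal centring, array weights, the block at 48 hpf and the omission of arrays could change these differences. The other alternatives leave them as they are by construction. With each array left out in turn the difference ranged from 3.39 to 3.57 at 24 hpf and 0.73 to 0.79 at 48 hpf for *isg15*, from 1.42 to 1.5 and 1.48 to 1.85 for *isg20*, from -0.80 to -0.52 and 0.39 to 0.63 for *irf1b*, and from -0.30 to -0.20 and -0.54 to -0.40 for *adar*. Centring on ribosomal protein genes moved the 48 hpf difference to 0.87 for *isg15* and -0.34 for *adar*, as it moved the median of all probe sets to 0.12.

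The counts of interferon pathway genes depended more on the processing. At 24 hpf (4 higher, 5 lower) the lower count was 8 with each time alone and 8 with array weights, the higher count was 1 over brighter probe sets, and with a fold of at least 2 the counts were 1 higher and 0 lower. The shares over the whole array moved as well: 8.88% of all probe sets were lower with each time alone and 10.3% with array weights. Of the brighter probe sets 8.49% were higher, and 0.484% of all passed with a fold of at least 2. Leaving out 1 array gave 2 to 3 higher and 3 to 5 lower. At 48 hpf (8 higher, 3 lower) the higher count was 3 over brighter probe sets, 21 with ribosomal centring and 16 with array weights, the lower count was 5 with cyclic loess (7 higher) and 6 with array weights, and with a fold of at least 2 both were 0. Here too the shares over the whole array moved. With array weights 18% of all probe sets were higher and 14.3% lower at 48 hpf, and with ribosomal centring 24.8% were higher. Of the brighter probe sets 20.9% were higher. With cyclic loess 1875 of 15502 probe sets were lower, beside 1518 in the main fit. With a fold of at least 2, 0.91% of all passed. The number of list genes among the brighter probe sets is not given here. Leaving out 1 array gave 6 to 11 higher and 3 to 4 lower. Apart from the fewer probe sets or stricter threshold that some of these use, the cause was not tested. Of 711 values of named genes that passed the threshold, recomputed under the alternatives, 631 stayed past it, 80 did not and 0 turned direction.

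With the replicate number as a block, the interferon lists had 3 higher and 6 lower at 24 hpf and 6 higher and 3 lower at 48 hpf, and the *irf1b* difference at 48 hpf was 0.44. Among all probe sets the block gave 3.59% higher and 4.47% lower at 24 hpf and 11.8% and 8.7% at 48 hpf. The numbers were not taken to pair the arrays in the main fit, but the ages differed. At 24 hpf the deviations of same-numbered morphants and controls had correlations from 0.02 to 0.20, and 6 of 8 arrays correlated best with their own number. At 48 hpf the correlations ran from -0.45 to -0.08, and 0 of 6 arrays did so. Of the 7 pairs 3 were over 0.1. Whether same-numbered pools at 24 hpf shared a source was not tested, and the block allows for it. Under the block *ftr82* and *ptgs2a* at 24 hpf and *adat1*, *irf7* and *socs3a* at 48 hpf were no longer called (limma adjusted p from 0.061 to 0.096). Signal over background limits *isg15* in controls, *irf1b* throughout and 30 of the 70 pathway genes.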
